A study of Mus musculus with 9 samples.

Results

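The expression of 10 genes of heme breakdown, heme synthesis and iron handling was examined in mouse retina after laser-induced retinal vein occlusion (RVO). These were Hmox1, Hmox2, Blvrb, Fth1, Ftl1, Slc40a1, Tfrc, Trf, Alas1 and Alas2, taken by symbol from a table of read counts that listed 48587 gene names besides spike-in controls, and all 10 passed the filter on low counts in each comparison. The mice were of the C57BL/6J strain and 12 weeks old. In laser-treated mice, eosin Y (200 mg/kg) was injected under anesthesia with ketamine and xylazine, and the laser was set to 50 mW, a spot of 50 µm and 2.5 s. In RVO eyes, all large veins were occluded by the laser, and in control laser-treated eyes, the laser was aimed at retina between large vessels. The other eye of each RVO mouse was thus its control eye, and both received eosin Y and laser light, so that a response shared by both eyes does not show in their comparison. Untreated eyes came from other mice without laser treatment. Whether they received eosin Y or anesthesia is not given in the sources used here. Each sample was a pool of 6 retinas, with 3 pools per group, taken at d2 in the laser-treated groups, so n counts pools and not mice. The paper reports that part of the occluded veins re-opened over the following days, so some may have been open at d2.

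Heme oxygenases open the heme ring and release iron, carbon monoxide and biliverdin, which biliverdin reductases turn into bilirubin. HMOX1 is the inducible and HMOX2 the constitutive enzyme. Free iron is stored in ferritin, a shell of heavy (FTH1) and light (FTL1) chains, leaves cells through ferroportin (SLC40A1), and enters them bound to transferrin (TRF) through the transferrin receptor (TFRC). ALAS1 catalyzes the first step of heme synthesis in most cells and ALAS2 in red cell precursors. When iron is scarce, iron regulatory proteins bind a short hairpin in mRNA, the iron-responsive element. A hairpin in the 5′ UTR then blocks translation, and hairpins in the 3′ UTR of Tfrc protect its mRNA from decay.

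The hairpin is shown for the genes whose transcripts carry it, since read counts see mRNA and not a block of translation. GENCODE vM21 transcripts (build GRCm38) were searched on the sense strand for a C, 5 free bases, the loop CAGTG, 1 free base and 5 bases able to pair with the first 5. The motif was found in 5 of the 10 genes, in the 5′ UTR of Fth1, Ftl1, Slc40a1 and Alas2 and in the 3′ UTR of Tfrc. Of all genes with an annotated UTR, 0.148% (31 of 20899) held it in a 5′ UTR and 0.595% (129 of 21685) in a 3′ UTR. The sites follow from 5′ to 3′ on the strand of the gene, with 6 flanking bases on each side and the first 5 bases of the loop in capitals.
Fth1, 5′ UTR: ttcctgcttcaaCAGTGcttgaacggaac
Ftl1, 5′ UTR: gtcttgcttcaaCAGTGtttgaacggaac
Slc40a1, 5′ UTR: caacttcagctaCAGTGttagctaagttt
Alas2, 5′ UTR: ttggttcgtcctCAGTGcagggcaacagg
Tfrc, 3′ UTR, site 1: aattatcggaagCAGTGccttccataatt
Tfrc, 3′ UTR, site 2: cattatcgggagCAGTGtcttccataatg
Tfrc, 3′ UTR, site 3: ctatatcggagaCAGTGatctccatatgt
Tfrc, 3′ UTR, site 4: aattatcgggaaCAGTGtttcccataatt

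The site of Fth1 lay at chr19:9982732-9982760 on the plus strand, that of Ftl1 at chr7:45459779-45459807 on the minus strand and that of Slc40a1 at chr1:45925465-45925493 on the minus strand. In Alas2, on the plus strand, the site crossed a splice junction, with its first part at chrX:150547458-150547485 and its last base at position 150552149 in the next exon. The sites of Tfrc, on the plus strand, were at chr16:32631219-32631247, chr16:32631598-32631626, chr16:32631663-32631691 and chr16:32631710-32631738. Both ferritin sites were identical at 26 of 29 positions, whereas the Fth1 site shared 13 positions with that of Slc40a1 and 14 with that of Alas2. A match of letters is a description and was not a measurement of binding.

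The libraries held 21022997 to 28993921 counts (RVO), 18897218 to 23419497 counts (control) and 12377572 to 15245869 counts (untreated), so low genes were measured with less precision in the latter. Levels are expressed in CPM (counts per 1e+06 counts in the same library), scaled by TMM, a method that sets most genes equal between samples. Scaling by library size alone instead moved the median over all genes, on the log2 scale, to 0.22 for RVO versus untreated, 0.19 for control versus untreated and 0.07 for RVO versus control. Markers of retina were present in all groups, but rod genes stood at different levels. They summed to 46400 to 50500 CPM in RVO, 56600 to 69000 CPM in control and 86500 to 88400 CPM in untreated eyes. Whether fewer rods or less RNA per rod lay behind this was not tested. RVO replicate 2 stood apart, with lens markers at 4080 CPM, against 132 and 336 CPM in the other RVO samples, and pigment epithelium and melanocyte markers at 927 CPM, against 446 and 619 CPM. Lens markers were also high in control replicate 1, at 2160 CPM, against 151 and 267 CPM in the other control samples. In untreated samples they were at 15.5, 21.3 and 2.71 CPM, below every laser-treated sample. Their part in the comparisons with untreated eyes was not tested. Since RVO replicate 2 stood apart, results that change without it are given both ways. Results without control replicate 1 are given for fewer genes. Both comparisons with untreated eyes use the same 3 untreated samples, and are thus not independent of each other.

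Differences were tested with edgeR's quasi-likelihood test, and genes under a Benjamini-Hochberg adjusted p of 0.01, over all genes tested, are called higher or lower. In RVO versus untreated eyes, 5 of the 10 genes were higher (Hmox1, Blvrb, Fth1, Ftl1 and Trf), while 27.4% of all genes tested were called higher. Hmox2 and Tfrc were lower, 2 of 10 against 24.6% of all genes. The groups did not overlap for 8 of the 10 genes, against 73.4% of all genes. In control versus untreated eyes, 4 genes were higher (Hmox1, Blvrb, Ftl1 and Trf) and the same 2 lower, against 27.2% and 25.2% of all genes. Here 7 genes did not overlap, against 70.0%. In RVO versus control eyes, Ftl1 alone passed as higher, 1 of 10 against 2.70% of all genes, and 0 of 10 were lower, against 0.634%. At an adjusted p under 0.05, Hmox1, Blvrb, Fth1, Ftl1 and Trf were higher, 5 of 10 against 17.5%, and 0 were lower, against 17.1%. At an unadjusted p under 0.05, 5 genes were higher and 1 lower, against 24.1% and 22.9% of all genes, and DESeq2 called 5 higher and 0 lower, against 11.0% and 12.8%. For 6 of the 10 genes, RVO and control samples did not overlap, against 52.5% of all genes. The median log2 fold change of the 10 genes was 0.79, 0.16 and 0.58 in these comparisons, and that of all genes tested was 0.01, 0.01 and 0.02. Without RVO replicate 2, 6257 of 17199 genes were called in RVO versus control eyes, against 563 with all samples. Without any other RVO or control sample, at most 29 genes were called, none of the 10 among them. A gene that passes without RVO replicate 2 is read against these numbers.

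**Figure D1:**
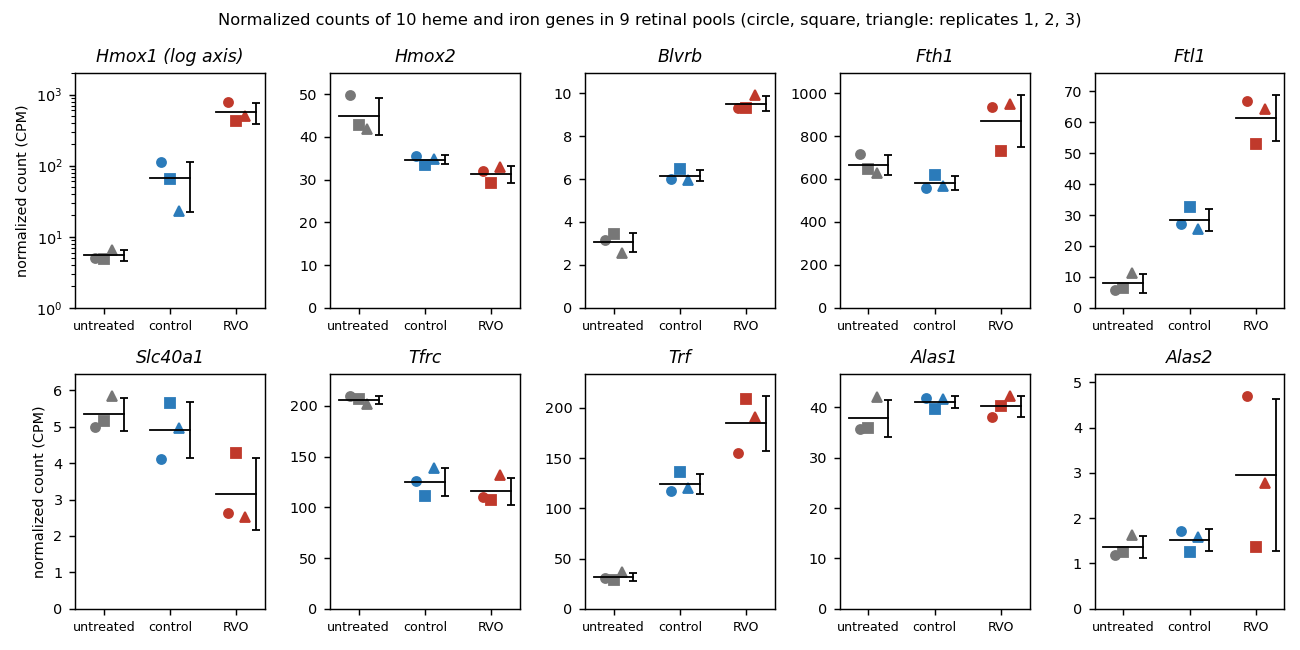
Normalized count in CPM (vertical axis, log scale for Hmox1 and linear from 0 for the others) of each gene in the 3 untreated, 3 control and 3 RVO pools, with the mean as a line and the SD as a bar. Hmox1, Blvrb, Ftl1 and Trf step up from untreated to control to RVO without overlap, Hmox2 and Tfrc are highest in untreated pools, and Alas2 is high in RVO replicates 1 and 3 only.

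Of the genes of heme breakdown, Hmox1 (chr8:75093621-75100589, plus strand) showed the largest differences among the 10 genes. Its level was 778, 426 and 495 CPM in RVO replicates 1 to 3, 112, 65.3 and 23.1 CPM in control eyes and 5.09, 4.92 and 6.57 CPM in untreated eyes, where it rested on 56 to 92 counts. Each RVO sample was above each control sample, and each control sample above each untreated one. The means were 567 ± 186, 66.9 ± 44.7 and 5.53 ± 0.909 CPM (SD, n = 3). In bulk retina, more cells of a type and more RNA per cell cannot be told apart. Hmox1 rose 104-fold in RVO versus untreated eyes (log2 fold change 6.70, SE 0.28, adjusted p = 2.52e-06) and 12.1-fold in control versus untreated eyes (3.60, SE 0.48, adjusted p = 2.97e-05). Between RVO and control eyes, the difference was 8.48-fold (3.08, SE 0.54), but it missed the threshold of 0.01 with an adjusted p of 0.0112. The control samples spanned 4.86-fold among themselves, wider than for any other of the 10 genes in that group. Without RVO replicate 2, the difference from control eyes passed (3.24, adjusted p = 0.000546). With DESeq2, it passed with all samples (3.07, adjusted p = 1.58e-05). Control replicate 1, the highest of its group, moved both values by over 1.5 times, since without it Hmox1 was higher by 3.00 in control versus untreated (adjusted p = 2.74e-06) and by 3.68 in RVO versus control eyes (adjusted p = 0.0444). Over all samples left out in turn, these values ranged from 3.00 to 4.02 and from 2.67 to 3.68.

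Hmox2 (chr16:4726361-4766742, plus strand) went the other way. Its level was 31.9, 29.1 and 32.9 CPM in RVO eyes, 35.5, 33.4 and 34.9 CPM in control eyes and 49.9, 42.7 and 41.9 CPM in untreated eyes, and no group overlapped with another. Relative to untreated eyes, it fell by 0.48 on the log2 scale in RVO eyes (SE 0.10, adjusted p = 0.00287) and by 0.35 in control eyes (SE 0.08, adjusted p = 0.0016). These calls depended on the scaling, since with library size alone the values were -0.27 (adjusted p = 0.0397) and -0.18 (adjusted p = 0.0568). Without untreated replicate 1, which had the highest level, the call against RVO eyes was lost as well (-0.41, adjusted p = 0.0116). The difference between RVO and control eyes was -0.14 (SE 0.08, adjusted p = 0.185). Exons of Hmox2 share 892 bases with Cdip1 on the opposite strand, which had 1217 to 3348 counts. The libraries kept the strand, but whether the counting used it is not given in the sources used here.

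Blvrb (chr7:27447978-27466144, plus strand), a biliverdin reductase, was measured at 9.33, 9.3 and 9.94 CPM in RVO eyes, 6.01, 6.47 and 5.98 CPM in control eyes and 3.18, 3.44 and 2.57 CPM in untreated eyes. The groups were separate and the spread within each was small. It rose 3.18-fold in RVO eyes (log2 fold change 1.67, SE 0.17, adjusted p = 8.02e-05) and 2.04-fold in control eyes (1.03, SE 0.16, adjusted p = 0.000101), both against untreated eyes. RVO eyes were at 1.55-fold the level of control eyes, which missed the threshold (0.63, SE 0.12, adjusted p = 0.0125) and passed without RVO replicate 2 (0.63, adjusted p = 0.00208). The other biliverdin reductase gene, Blvra, had a log2 fold change of 0.13 (SE 0.11, adjusted p = 0.325) in RVO versus untreated eyes.

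Within each sample, levels per exon length tell how the paired genes stood to each other. Hmox1 was at 0.13, 0.147 and 0.2 times the level of Hmox2 per kilobase of exon in untreated eyes. In control eyes, the ratio was 4.01, 2.47 and 0.839, and in RVO eyes 30.9, 18.5 and 19. Hmox2 thus stood higher in every untreated sample and Hmox1 in every RVO sample, with control replicate 3 near an equal level. On the log2 scale, the mean ratio differed by 7.15 between RVO and untreated eyes, by 3.70 between control and untreated eyes and by 3.45 between RVO and control eyes. For each, an exact permutation test (two-sided, 3 against 3) gave p = 0.1, which is the smallest it can give, so these ratios are a description.

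**Figure D2:**
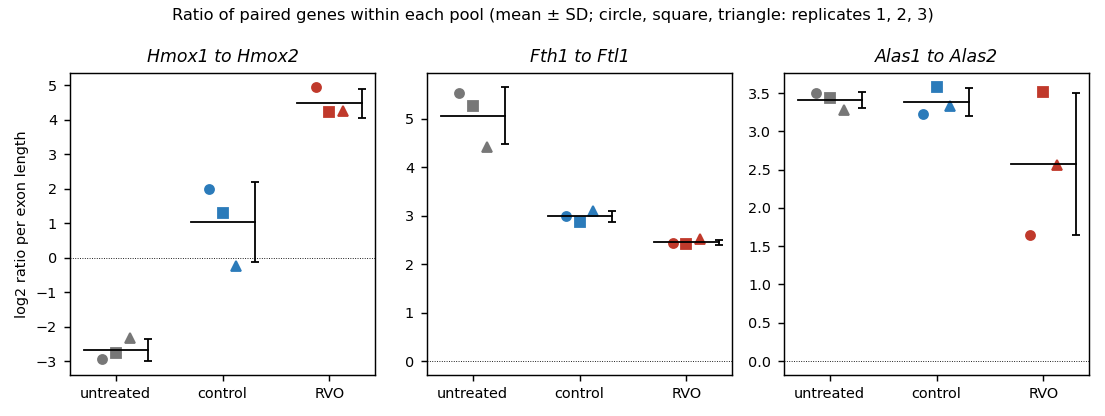
Log2 ratio of levels per exon length (vertical axis) for Hmox1 to Hmox2, Fth1 to Ftl1 and Alas1 to Alas2 in each pool, with mean and SD; the dotted line marks an equal level. Hmox1 to Hmox2 crosses the line from untreated to RVO pools, Fth1 to Ftl1 drops from 5.54, 5.27 and 4.41 in untreated to 2.43, 2.41 and 2.51 in RVO pools, and Alas1 to Alas2 spreads in RVO pools.

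Both ferritin chains were highest in RVO eyes, but they differed in size and in control eyes. Ftl1 (chr7:45457944-45459884, minus strand), the light chain, was at 67, 53 and 64.3 CPM in RVO eyes, 27.2, 32.6 and 25.5 CPM in control eyes and 5.9, 6.41 and 11.4 CPM in untreated eyes. No groups overlapped, and among untreated samples replicate 3 was the highest. Ftl1 rose 7.89-fold in RVO versus untreated eyes (log2 fold change 2.98, SE 0.23, adjusted p = 2.88e-05) and 3.59-fold in control versus untreated eyes (1.84, SE 0.19, adjusted p = 3.32e-06). It was the 1 gene of the 10 that passed between RVO and control eyes, at 2.17-fold (1.12, SE 0.13, adjusted p = 0.00672). This call held without RVO replicate 2 (1.20, adjusted p = 1.83e-05) and was lost when any other RVO or control sample was left out. It was also lost with the replicate number as a block (adjusted p = 0.0314). Without RVO replicate 1 or 3, the log2 fold changes were 1.04 (adjusted p = 0.0144) and 1.07 (adjusted p = 0.0389). Without control replicate 1, 2 or 3, they were 1.08 (adjusted p = 0.0444), 1.22 (adjusted p = 0.0156) and 1.04 (adjusted p = 0.0508). Ftl1 has close pseudogenes and reads were 50 bases long, so its level depends on how reads with several matches were counted. Ftl1-ps1, Ftl1-ps2 and Ftl2-ps had at most 5 counts in a sample. Its exons also share 464 bases with Gm22133 and Gm10252.

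Fth1 (chr19:9980598-9985098, plus strand), the heavy chain that oxidizes iron for storage, was at 934, 731 and 949 CPM in RVO eyes, 559, 620 and 568 CPM in control eyes and 715, 646 and 627 CPM in untreated eyes. All RVO samples lay above all others, while all control samples lay below all untreated ones. Against untreated eyes, Fth1 rose 1.34-fold in RVO eyes (log2 fold change 0.43, SE 0.11, adjusted p = 0.00977), just inside the threshold. That call was lost without RVO replicate 1 or 3 or any untreated sample (adjusted p = 0.0183 to 0.0455), with size factors of the DESeq2 type (adjusted p = 0.0109) and with a filter of 1 CPM in 3 samples (adjusted p = 0.01 after rounding). RVO replicate 2 was the lowest of its group, and without it the value was 0.56 (adjusted p = 7.24e-06). In control versus untreated eyes, the log2 fold change was -0.17 (SE 0.07, adjusted p = 0.0468), and with library size alone its sign turned (0.01). The difference between RVO and control eyes was 1.5-fold (0.58, SE 0.11, adjusted p = 0.013), and it passed without RVO replicate 2 (0.68, adjusted p = 7.75e-05).

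Per kilobase of exon, Fth1 stood at 46.5, 38.7 and 21.2 times Ftl1 in untreated eyes, at 7.92, 7.34 and 8.6 times in control eyes and at 5.38, 5.32 and 5.69 times in RVO eyes. By these counts, the heavy chain was thus the higher one in all 9 samples, by less in laser-treated eyes. Ftl1 rested on 65 to 159 counts in untreated eyes. Reads matching its pseudogenes as well may have been dropped, so how far Fth1 stood above Ftl1 is uncertain. On the log2 scale, the ratio dropped by 2.62 from untreated to RVO eyes, by 2.08 from untreated to control eyes and by 0.54 from control to RVO eyes (exact permutation test, p = 0.1 each, the smallest possible with 3 against 3). The exon length of Fth1 used here, 3469 bases, includes long isoforms, which lowers its level per length in all samples alike.

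Of the genes of iron export and uptake, Slc40a1 (chr1:45908068-45926523, minus strand), encoding the iron exporter ferroportin, was at 2.64, 4.29 and 2.51 CPM in RVO eyes, 4.12, 5.66 and 4.98 CPM in control eyes and 4.99, 5.16 and 5.86 CPM in untreated eyes. RVO replicates 1 and 3 were below all other samples, and RVO replicate 2 lay above the lowest control sample. The log2 fold changes were -0.74 (SE 0.24, adjusted p = 0.0244) in RVO versus untreated and -0.64 (SE 0.24, adjusted p = 0.0764) in RVO versus control eyes, so neither passed. Without RVO replicate 2, both passed, at -1.0 (adjusted p = 0.000314) and -0.94 (adjusted p = 0.00309). In control versus untreated eyes, it was -0.11 (SE 0.16, adjusted p = 0.582), and its sign turned with library size alone (0.07) and without control replicate 1 (0.01). Levels of Slc40a1 were low, at 55 to 119 counts per sample.

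Tfrc (chr16:32608920-32632794, plus strand), the receptor that takes up transferrin-bound iron, was at 110, 107 and 132 CPM in RVO eyes, 126, 111 and 139 CPM in control eyes and 210, 207 and 202 CPM in untreated eyes. Untreated samples were all above 200 CPM and all laser-treated samples well below, with RVO and control samples intermingled. Tfrc fell by 0.79 on the log2 scale in RVO eyes (SE 0.09, adjusted p = 0.000151) and by 0.70 in control eyes (SE 0.07, adjusted p = 2.76e-06), relative to untreated eyes. RVO and control eyes differed by -0.10 (SE 0.11, adjusted p = 0.494).

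Trf (chr9:103204001-103230444, minus strand), encoding the iron carrier transferrin, was at 155, 209 and 191 CPM in RVO eyes, 117, 136 and 120 CPM in control eyes and 31, 28.6 and 36.6 CPM in untreated eyes. The groups were separate, with RVO replicate 2 the highest of all samples and RVO replicate 1 the lowest of its group. Trf rose 5.89-fold in RVO eyes (log2 fold change 2.56, SE 0.14, adjusted p = 5.92e-06) and 3.92-fold in control eyes (1.97, SE 0.09, adjusted p = 1.69e-08) against untreated eyes. The 1.49-fold difference between RVO and control eyes missed the threshold (0.57, SE 0.12, adjusted p = 0.0136) and passed without RVO replicate 2 (0.46, adjusted p = 0.00352). Transferrin and its receptor thus moved in opposite directions in both laser-treated groups against untreated eyes. Trf is also known from oligodendrocytes, whose markers summed to 29 to 39.2 CPM in RVO, 39.1 to 44.4 CPM in control and 38.8 to 53.6 CPM in untreated eyes, and their part in the level of Trf was not tested. Exons of Trf share 2108 of 3320 bases with Gm20425 on the same strand, which had 0 counts in all samples. Whether reads within both genes were dropped is not given in the sources used here, so the level of Trf and its rank per length are uncertain.

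The first enzymes of heme synthesis differed from the genes above. Alas1 (chr9:106233455-106248654, minus strand) was at 38.1, 40.3 and 42.3 CPM in RVO eyes, 41.9, 39.7 and 41.6 CPM in control eyes and 35.6, 35.8 and 42.0 CPM in untreated eyes, with all groups overlapping. Its log2 fold changes were 0.12 (SE 0.09, adjusted p = 0.28) in RVO versus untreated, 0.14 (SE 0.08, adjusted p = 0.143) in control versus untreated and -0.03 (SE 0.07, adjusted p = 0.78) in RVO versus control eyes. With library size alone, the second passed (0.31, adjusted p = 0.00525) and the third turned its sign (0.02).

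Alas2 (chrX:150547375-150570638, plus strand), the form of red cell precursors, was low, at 4.71, 1.36 and 2.77 CPM in RVO eyes, 1.72, 1.26 and 1.59 CPM in control eyes and 1.18, 1.25 and 1.64 CPM in untreated eyes. RVO replicates 1 and 3 were above all other samples, with 148 and 63 counts, and RVO replicate 2 lay within the range of the other groups, with 32 counts. The log2 fold changes were 1.16 (SE 0.46, adjusted p = 0.0523) in RVO versus untreated, 0.18 (SE 0.25, adjusted p = 0.559) in control versus untreated and 0.97 (SE 0.43, adjusted p = 0.115) in RVO versus control eyes. Without RVO replicate 2, the first and the last passed, at 1.52 (adjusted p = 0.000304) and 1.29 (adjusted p = 0.0035). Without RVO replicate 1, which had the highest level, they were 0.63 (adjusted p = 0.167) and 0.42 (adjusted p = 0.405). Exons of Alas2 share bases with Apex2 on the opposite strand, which had 185 to 662 counts with the highest number in RVO replicate 1, and their part in the level of Alas2 was not tested. Per kilobase, the log2 ratio of Alas1 to Alas2 was 1.65, 3.51 and 2.56 in RVO, 3.23, 3.58 and 3.33 in control and 3.5, 3.44 and 3.28 in untreated eyes (exact permutation tests, p = 0.4 for RVO versus untreated, 0.9 for control versus untreated and 0.3 for RVO versus control).

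**Figure D3:**
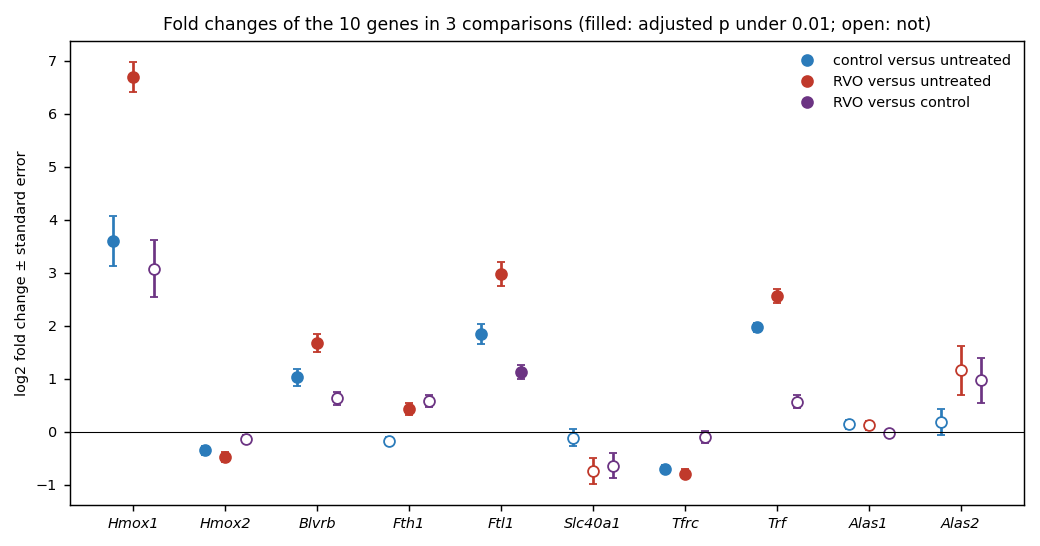
Log2 fold change with its standard error (vertical axis) of the 10 genes in control versus untreated (blue), RVO versus untreated (red) and RVO versus control (purple), filled where the adjusted p was under 0.01. Hmox1 has the largest values in each comparison, Tfrc and Hmox2 lie below 0 in all, and Ftl1 is the 1 filled purple point.

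The order of the 10 genes by level per kilobase of exon changed with treatment. In untreated eyes, Fth1 was highest, at 191 ± 13.5 CPM per kilobase (SD, n = 3), followed by Tfrc at 33.3 ± 0.7, Hmox2 at 20.2 ± 1.98, Trf at 9.65 ± 1.23, Alas1 at 6.12 ± 0.59, Ftl1 at 5.89 ± 2.25, Hmox1 at 3.16 ± 0.519, Blvrb at 1.1 ± 0.16, Slc40a1 at 0.593 ± 0.0509 and Alas2 at 0.565 ± 0.104. Alas1 and Ftl1, and Slc40a1 and Alas2, overlapped between samples. In RVO eyes, Hmox1 came first at 324 ± 106 CPM per kilobase, but with samples from 243 to 444 it overlapped with Fth1 at 251 ± 35.2. Trf at 55.7 ± 8.26 and Ftl1 at 45.9 ± 5.56 followed, and also overlapped. In CPM without exon length, the mean of Fth1 was 871 and that of Hmox1 567 in RVO eyes, the reverse order. The length of Fth1, 3469 bases, includes long isoforms, so which of Hmox1 and Fth1 came first is uncertain. In control eyes, Fth1 at 168 ± 9.51 was above Hmox1 at 38.2 ± 25.5 and Trf at 37.5 ± 3.05, whose samples overlapped.

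The other genes of the pathway were taken from lists of heme synthesis, heme breakdown, heme and hemoglobin transport, iron storage, uptake, export, regulation and mitochondrial use, and hemoglobin genes, 62 genes without the 10 above. In RVO versus untreated eyes, 28 of 55 tested genes were higher (50.9%) and 7 lower (12.7%), read against 27.4% and 24.6% of all genes. In control versus untreated eyes, 23 of 54 were higher (42.6%) and 9 lower (16.7%), against 27.2% and 25.2%. Between RVO and control eyes, 4 of 56 were higher (Alad, Steap4, Slc25a37 and Nfe2l2; 7.14% against 2.70% of all genes) and 0 lower, against 0.634%. At an unadjusted p under 0.05, 22 were higher and 7 lower, against 24.1% and 22.9% of all genes, and by DESeq2 14 were higher and 3 lower, against 11.0% and 12.8%. The median log2 fold changes were 0.39, 0.34 and 0.12. When any 1 RVO or control sample other than RVO replicate 2 was left out, 0 of these 4 were called. Without RVO replicate 2, 17 genes were higher and 6 lower, read against 2942 higher and 3315 lower of all 17199 genes tested.

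In heme synthesis, 3 of 9 genes were higher and 1 lower in RVO versus untreated eyes, Alas1 and Alas2 included (33.3% and 11.1%, against 27.4% and 24.6% of all genes). Alad, encoding the second enzyme of the pathway, rose by 1.5 (SE 0.09, adjusted p = 7.89e-06), with levels of 41.1 to 44.7 CPM in RVO, 26.1 to 31.7 CPM in control and 15.2 to 16.3 CPM in untreated eyes. It was also higher in RVO than in control eyes (0.63, SE 0.10, adjusted p = 0.00975). The later enzyme Ppox (0.57, SE 0.10, adjusted p = 0.00107) rose against untreated eyes. Slc25a37, the mitochondrial iron importer mitoferrin, was at 194 to 242 CPM in RVO, 121 to 148 CPM in control and 37.6 to 41.9 CPM in untreated eyes. It rose by 2.54 (SE 0.11, adjusted p = 2.46e-06) in RVO versus untreated and by 0.77 (SE 0.11, adjusted p = 0.00929) in RVO versus control eyes. Of the 10 genes of mitochondrial iron, 7 were higher and 1 lower in RVO versus untreated eyes, against 27.4% and 24.6% of all genes. Slc25a38, a glycine carrier for heme synthesis, was among the higher ones (0.88, SE 0.14, adjusted p = 0.000713).

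Of 14 genes of iron uptake, 7 were higher and 2 lower in RVO versus untreated eyes, Trf and Tfrc included (against 27.4% and 24.6% of all genes). Steap4, a metalloreductase, was at 22.5 to 27.9 CPM in RVO, 9.0 to 14.4 CPM in control and 0.817 to 1.21 CPM in untreated eyes. It rose by 4.72 (SE 0.19, adjusted p = 2.25e-06) against untreated and by 1.12 (SE 0.18, adjusted p = 0.00996) against control eyes. Its relative Steap1 (3.30, SE 0.43, adjusted p = 0.000287) and Ltf, encoding lactoferrin (2.75, SE 0.52, adjusted p = 0.00195), rose in RVO versus untreated eyes. Another relative, Steap2, went the other way (-1.45, SE 0.19, adjusted p = 0.000272), at 32.6 to 55.0 CPM in RVO and 104 to 120 CPM in untreated eyes. Among 3 tested genes of iron export, Cp, the ferroxidase ceruloplasmin, was at 584 to 689 CPM in RVO, 527 to 632 CPM in control and 214 to 249 CPM in untreated eyes. It rose by 1.46 in RVO (SE 0.09, adjusted p = 9.99e-06) and by 1.35 in control eyes (SE 0.08, adjusted p = 8.39e-08), and RVO and control samples overlapped (0.10, SE 0.09, adjusted p = 0.432). Among 5 tested genes of iron storage, the iron chaperone Pcbp1 rose (0.73, SE 0.07, adjusted p = 7.24e-05) and Pcbp2 fell by 0.59 (SE 0.06, adjusted p = 7.88e-05) in RVO versus untreated eyes.

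Of the regulators, 3 of 8 tested genes were higher and 2 lower in RVO versus untreated eyes, shares of 37.5% and 25% that were near those of all genes (27.4% and 24.6%). Ireb2, encoding an iron regulatory protein (-0.50, SE 0.07, adjusted p = 0.000565), and Fbxl5, which marks that protein for decay (-0.50, SE 0.06, adjusted p = 0.000275), were both lower. Nfe2l2, encoding the stress factor NRF2 known to act on Hmox1 and the ferritin genes, rose by 0.48 (SE 0.10, adjusted p = 0.00279) against untreated and by 0.62 (SE 0.10, adjusted p = 0.00977) against control eyes. It was at 53.5 to 61.0 CPM in RVO, 32.8 to 38.8 CPM in control and 37.2 to 44.5 CPM in untreated eyes, with the last groups overlapping. Of 8 further targets of NRF2, 5 were higher and 1 lower in RVO versus untreated eyes (against 27.4% and 24.6% of all genes), and 4 higher and 2 lower in control versus untreated eyes (against 27.2% and 25.2%). In RVO versus control eyes, 2 were higher and 0 lower (against 2.70% and 0.634%). Those higher were Slc7a11, a cystine carrier (1.89, SE 0.21, adjusted p = 0.00672), and Gclm, of glutathione synthesis (0.69, SE 0.09, adjusted p = 0.00846).

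**Figure D4:**
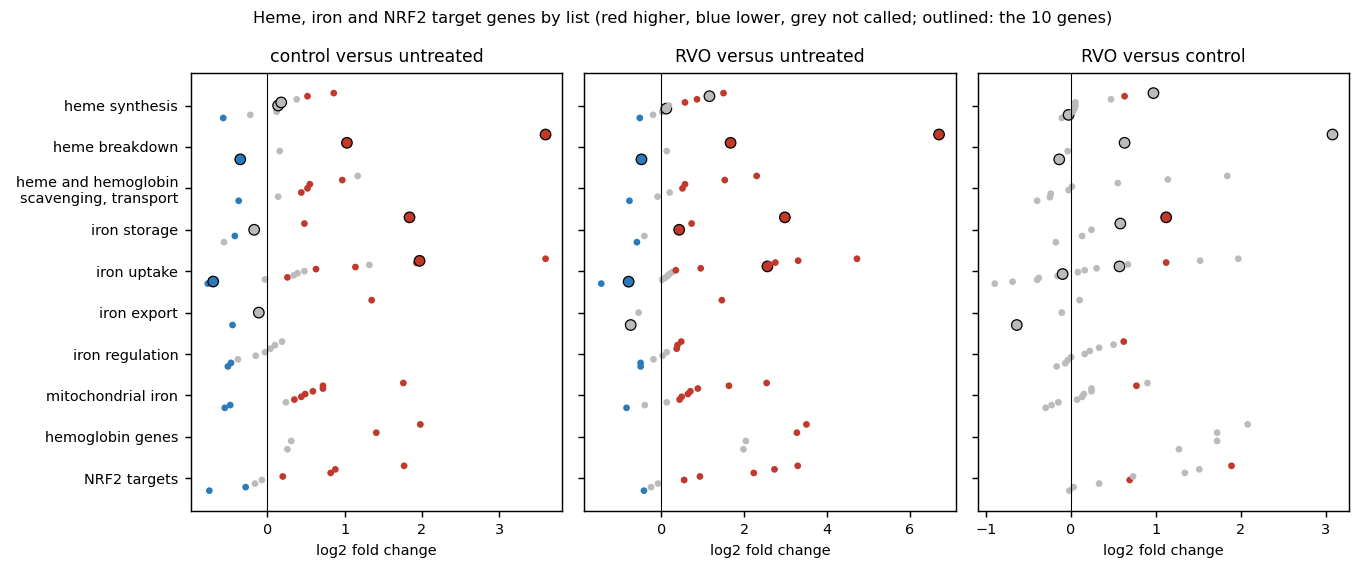
Log2 fold change (horizontal axis) of each tested gene by list (vertical axis) in the 3 comparisons, red where called higher, blue where called lower and grey otherwise, with the 10 genes outlined; Hp is left out where untreated samples were at the floor of 3 counts. More points are red than blue against untreated pools in most lists, and few are colored between RVO and control pools.

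Genes known from red cells and genes of proteins that bind hemoglobin or heme were measured beside these. Free heme itself was not measured. The 4 hemoglobin genes summed to 192, 48.3 and 76.4 CPM in RVO, 29.4, 27.8 and 27.0 CPM in control and 13.3, 13.4 and 13.4 CPM in untreated eyes. RVO replicate 1 was thus highest and replicate 2 lowest of the RVO samples, as for Hmox1, Ftl1 and Alas2. The summed further targets of NRF2 had this order too, at 783, 552 and 666 CPM in RVO replicates 1 to 3. Hbb-bs (3.50, SE 0.50, adjusted p = 0.000444) and Hbb-bt (3.27, SE 0.60, adjusted p = 0.00165) rose in RVO versus untreated eyes, and Hba-a1 (2.04, SE 0.56, adjusted p = 0.0116) and Hba-a2 (1.98, SE 0.52, adjusted p = 0.0101) missed the threshold. Between RVO and control eyes, 0 of 4 passed, with Hbb-bs at 2.08 (SE 0.46, adjusted p = 0.016). Of the wider list of 9 erythroid markers, 2 of 5 tested genes were higher and 1 lower in RVO versus untreated eyes, against 27.4% and 24.6% of all genes. The higher ones were Hbb-bs and Hbb-bt. Ermap, an erythroid membrane protein, went the other way, at 1.47 to 2.0 CPM in RVO, 1.41 to 2.18 CPM in control and 3.0 to 4.53 CPM in untreated eyes (-1.09, SE 0.24, adjusted p = 0.00402 for RVO versus untreated). The red cell membrane markers Slc4a1 and Epb42 were at 0 to 0.429 CPM in all samples. The part of blood RNA in the levels of Hmox1 and Alas2 was not tested.

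Hp, encoding the hemoglobin-binding haptoglobin, was at 3.85, 2.68 and 5.72 CPM in RVO and 1.04, 1.67 and 0.753 CPM in control eyes, while untreated samples had at most 3 counts. Relative to untreated eyes, the level of Hp was at least 17-fold higher after RVO and, after control treatment, at least 4.8-fold higher, with the floor of 3 counts taken for each untreated sample. Hpx, encoding the heme-binding hemopexin, was at 1.57 to 2.33 CPM in RVO, 0.859 to 0.921 CPM in control and 0.0714 to 0.908 CPM in untreated eyes, and rose by 2.30 (SE 0.54, adjusted p = 0.00567) in RVO versus untreated eyes. Hebp1, a heme-binding protein, rose by 1.53 (SE 0.20, adjusted p = 0.000309) in the same comparison. Of these 3 genes, none passed between RVO and control eyes (1.84, 1.14 and 0.55, adjusted p = 0.0139, 0.0132 and 0.039). Cd163, the macrophage receptor for hemoglobin bound to haptoglobin, was at 0 to 0.429 CPM and was not tested.

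Cells known for high Hmox1, ferritin and Slc40a1 include macrophages. Monocyte and macrophage markers summed to 141 to 154 CPM in RVO, 78.2 to 95.1 CPM in control and 46.4 to 67.4 CPM in untreated eyes, with 6 of 9 tested genes higher and 1 lower in RVO versus untreated eyes, against 27.4% and 24.6% of all genes. Lyz2, of myeloid cells, was at 48.7 to 60.9 CPM in RVO, 20.8 to 30.4 CPM in control and 2.5 to 3.72 CPM in untreated eyes. The group means had the order of those of Hmox1 and Ftl1, while the mean of Slc40a1 was lowest in RVO eyes. Microglia markers went the other way, at 28.8 to 44.3, 40.9 to 49.4 and 93.8 to 142 CPM, with 5 of 6 genes lower in RVO versus untreated eyes, against 24.6% of all genes. P2ry12, their purine receptor, was at 0.542 to 1.27 CPM in RVO and 14.3 to 26.4 CPM in untreated eyes. Mueller cell markers summed to 1520 to 2290, 2680 to 3300 and 4330 to 4580 CPM. Endothelial markers summed to 141 to 264, 319 to 355 and 174 to 179 CPM. Their largest parts were Glul (652, 1250 and 2600 CPM on average) and Kdr (148, 254 and 128 CPM). In RVO versus untreated eyes, 0 of 6 Mueller cell genes were higher and 3 lower. Of 7 endothelial genes, 3 were higher and 1 lower. Both lists are read against 27.4% and 24.6% of all genes. In control versus untreated eyes, these numbers were 1 and 3, and 6 and 0, against 27.2% and 25.2%. The part of these cells in the levels of the 10 genes was not tested.

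**Figure D5:**
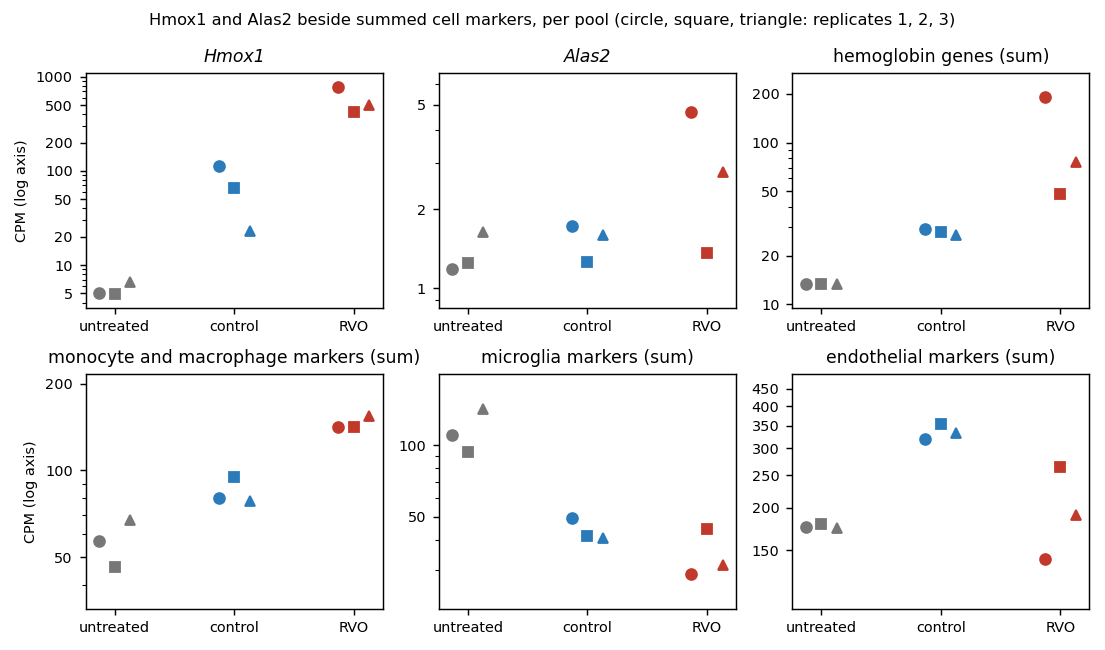
CPM (vertical axes, log scale) of Hmox1 and Alas2 and of the summed hemoglobin genes and the monocyte and macrophage, microglia and endothelial markers in each pool, by group. Hemoglobin genes and Alas2 share the order of the RVO pools, with replicate 1 highest and replicate 2 lowest. The macrophage sums of the RVO pools lie close together at 141, 141 and 154, but single markers, not drawn, differ in order. Cd68 (37.0, 26.6 and 36.9 CPM) and Itgam (26.3, 17.5 and 24.4 CPM) were lowest in RVO replicate 2. Lyz2 (48.7, 57.8 and 60.9 CPM) and Csf1r (15.8, 23.5 and 17.3 CPM) were lowest in RVO replicate 1.

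The 5 genes whose pattern was most like that of Hmox1 over the 9 samples were S100a9, S100a8, Ccl2, Hmga2 and Lif, among 14973 genes with a mean of at least 1 CPM. Likeness was measured as the root mean square difference of log2 levels relative to the untreated mean, which was 0.59, 0.71, 0.77, 0.79 and 0.80 for these genes. In untreated eyes, S100a9, S100a8 and Ccl2 were at or below 3 counts, so the pseudocount of 0.5 CPM sets the size of their difference from untreated eyes, and they met the minimum through the laser-treated groups alone. The likeness of these 3 genes to Hmox1 thus depends on that pseudocount. It also narrows the difference from untreated eyes for Hmga2, at 0.363, 0.938 and 0.5 CPM there, and for Lif, at 0.727 to 1.17 CPM. The likeness of all 5 genes is therefore affected by it. S100a9, encoding a calprotectin subunit of myeloid cells, was at 38.5, 13.9 and 39.5 CPM in RVO and 8.77, 6.87 and 2.39 CPM in control eyes, and was at or near 0 in untreated eyes. As for Hmox1, control replicate 3 was the lowest control sample and RVO replicate 2 the lowest RVO sample. The 5 genes were picked by likeness over these same samples, so a shared order of replicates is not a separate result. Ccl2, a monocyte chemokine, was at 23.8, 16.5 and 25.7 CPM in RVO and 8.0, 7.38 and 3.01 CPM in control eyes. Lif, a cytokine released by Mueller cells after retinal damage, was at 75.0, 47.9 and 72.4 CPM in RVO, 15.8, 17 and 12.6 CPM in control and 0.727, 1.17 and 1.07 CPM in untreated eyes.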

How the data were processed

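RNA from 9 pools of retinas was sequenced with a stranded poly-A kit in single reads of 50 cycles. Per the labels, the authors used STAR 2.5.2b and featureCounts of Subread 1.5.1, and the paper names Gencode vM11. They deposited raw counts per gene symbol. Settings for strand and for reads with several matches are not given in the sources used here. Of 48679 names, 92 were spike-in controls with 0 counts. The number of columns not used was 0. Coordinates, exon lengths and UTRs came from GENCODE vM21 (GRCm38).

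Each pair of groups was fitted on its own by edgeR 4.0.16 under R 4.3.3 (filterByExpr, TMM, quasi-likelihood test), with Benjamini-Hochberg adjusted p-values and a threshold of 0.01, the threshold of the paper. The floor was 3 counts. The pseudocount was 0.5 counts for ratios and 0.5 CPM for likeness to Hmox1. DESeq2 1.42.0, other normalizations and filters, 1 fit over all 9 samples, a block for replicate number, a threshold of 0.05 and each sample left out were alternatives. On simulated counts of 16131 genes for RVO versus untreated eyes, of which 200 were changed, 61% of 2-fold and 88% of 4-fold changes were found, with 10 false calls.

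The genes and lists were chosen with earlier results of these data known. Named were the 10 genes, up to 3 called genes per list for RVO versus untreated and up to 2 for RVO versus control eyes by size of change, Hp, Hpx, Cd163 and hemoglobin genes, up to 2 markers per list, and the 5 genes most like Hmox1. Blvra, Steap2, Apex2, Cdip1 and pseudogenes were added after their values were seen. Replicates differed by more than sampling noise (chi-square of 3.15 to 54.1 per degree of freedom). Flvcr1 and Flvcr2 were not analysed here, and some genes that the rule names are not reported here.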

Additional observations from a re-analysis of the deposited data

How the results depend on the processing

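Over 30 results of single genes (10 genes in 3 comparisons) and 420 repeats under the alternatives, 416 kept their direction. The 4 that turned were Fth1 and Slc40a1 in control versus untreated eyes (0.01 and 0.07) and Alas1 in RVO versus control eyes (0.02) with library size alone, and Slc40a1 without control replicate 1 (0.01, in a range from -0.22 to 0.01 when each sample was left out). With library size alone, the share of higher genes among all called was 68.5% in RVO versus untreated (52.7% by TMM) and 70.4% in control versus untreated eyes (51.9% by TMM), and 1 of the 10 genes was lower in each. In RVO versus control eyes, the calls depended on the setting, and the cause was not tested. Over all genes, 563 were called, 892 with library size alone, 4019 by DESeq2, 3309 without a filter, 3853 in a fit of all 9 samples and 5836 at 0.05. Of the 10 genes, 2 were higher with library size alone and 5 by DESeq2, without a filter, in the fit of all 9 samples and at 0.05. Of the other pathway genes, 1 was higher with size factors of the DESeq2 type and 1 with a filter of 1 CPM in 3 samples, 14 by DESeq2, 12 without a filter, 10 in the fit of all samples and 19 at 0.05, and 3, 2, 2 and 5 were lower by the latter 4.

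When each sample was left out in turn, the genes called in RVO versus control eyes ranged from 0 to 6257, those of the 10 genes from 0 to 6 higher and 0 to 1 lower, and those of the other pathway genes from 0 to 17 higher and 0 to 6 lower. The upper ends were all reached without RVO replicate 2. At an unadjusted p under 0.05, 6100 to 9839 genes differed in these fits. In RVO versus untreated eyes, 1 to 3 of the 10 genes were lower, with 1 without untreated replicate 1. The log2 ratio of Alas1 to Alas2 in control versus untreated eyes, -0.03, ranged from -0.13 to 0.05 and turned its sign without control replicate 1 (0.05) and untreated replicate 1 (0.02). The other ratios kept their sign.

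With the replicate number as a block, edgeR called 0 genes in RVO versus control eyes, 0 of the 10 genes and 0 of the other pathway genes (7227 genes at an unadjusted p under 0.05), and Ftl1 had an adjusted p of 0.0314. The numbers could not be shown to pair the samples, since deviations of RVO and control samples of the same number correlated at -0.167, -0.168 and 0.092, and not every sample correlated best with its own number. The block changed no other call of the 10 genes. Depth limited low genes in untreated eyes, where 3 counts were 0.214 to 0.272 CPM.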
